A study of Brassica oleracea with 7 samples.

Results

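In Brassica oleracea, 4 genes of 39481 (0.0101%) were high in flower bud, silique and callus and low in both open flower and leaf. The 4 genes, Bol029483, Bol032250, Bol033855 and Bol004119, were chosen by their measured levels. In each, the lowest of bud, silique and callus was at least 4 times the highest of flower and leaf on FPKM + 1, and bud was at 10 FPKM or more. FPKM counts the fragments of a gene relative to the length of its model and to the depth of the library. The levels in these 5 tissues are therefore given as a description, with no test, while root and stem were not used in the choice.

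Transcripts of 7 tissues were measured by RNA-seq of poly(A)+ RNA. Bud of 0.8 cm length, flowers that opened on the same day, silique (the seed pod) 15 days after pollination, and leaf, root and stem of plants 7 weeks old came from a greenhouse at 15 to 25 °C. Callus, a mass of cells without organs, was grown in tissue culture at 25 °C, and the organ it was started from is not given in the sources used here. With a single library for each tissue, differences could not be set against a spread between replicates, and the comparisons are between libraries. The libraries held between 8459141 (flower) and 10598033 (root) fragments in gene models, as implied by the deposited intervals. Those intervals, given here after each value, and the number of fragments cover counting error only.

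Flower buds, young siliques and callus are known as places of growth. Buds form floral organs, pollen and ovules, young siliques hold enlarging fruit walls and developing seeds, and callus cells divide in culture. Open flowers and mature leaves are largely organs that have finished dividing, while root tips and the cambium and tip of the stem keep dividing cells among many that do not. The files pair no gene ID with a gene name, and the RefSeq gene table for the species held 0 of the 39481 IDs. What the 4 genes encode is therefore not given here, and whether they include genes of cell division could not be looked up. The name growing-tissue genes rests only on the tissues that the rule required to be high. It leaves out that Bol033855 was highest in stem and that root reached the lowest of those tissues in Bol032250 and Bol004119. In whole organs, fewer cells of a type and less RNA per cell cannot be told apart.

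The 4 genes did not share 1 order of tissues. The highest tissue was bud for Bol029483, callus for Bol032250, stem for Bol033855 and silique for Bol004119. Root was near the floor for the first of these and at the level of the growing tissues for the other 3, and stem was low for all but Bol033855.

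Bol029483 had the widest gap and the highest bud level of the 4 genes. It was at 93.1 FPKM (88.6 to 97.6) in bud, 24.0 FPKM (21.6 to 26.4) in callus and 12.1 FPKM (10.5 to 13.8) in silique. In flower it was at 0.268 FPKM on 5 fragments, and in leaf it was listed at 0, where 3 fragments would have been 0.161 FPKM. Root was at 0.271 FPKM, also on 5 fragments, and stem at 1.90 FPKM (1.26 to 2.54). The intervals of bud, callus, silique and stem did not overlap each other or those of the remaining tissues, while root, flower and leaf could not be ordered at this depth. The lowest growing tissue, silique, exceeded flower by 3.37 on the log2(FPKM + 1) scale (2.94 to 3.84 from the interval bounds). Its level in bud was above that of 96.8% of all genes in the library.

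Bol032250 was highest in callus, at 49.5 FPKM (46.3 to 52.7). It was at 18.2 FPKM (16.3 to 20.0) in root, 17.5 FPKM (15.7 to 19.3) in silique and 14.2 FPKM (12.6 to 15.9) in bud. Stem was at 2.30 FPKM (1.64 to 2.96), leaf at 1.69 FPKM (1.12 to 2.25) and flower at 1.35 FPKM (0.852 to 1.86). The 7 tissues fell into a single high value, a middle group of root, silique and bud, and a low group of stem, leaf and flower. Neighbours within the middle group and within the low group had overlapping intervals. Bud exceeded leaf by 2.50 on the log2(FPKM + 1) scale (2.07 to 2.99).

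Bol033855 was abundant in more tissues than the other 3 genes. It was at 107.6 FPKM (101.3 to 114) in stem, 73.4 FPKM (67.9 to 78.9) in callus and 59.7 FPKM (55.0 to 64.5) in bud. Silique and root were alike, at 29.4 FPKM (26.1 to 32.7) and 29.3 FPKM (26.0 to 32.7). Flower was at 5.12 FPKM (3.74 to 6.50) and leaf at 3.17 FPKM (2.08 to 4.26), with overlapping intervals. The 5 higher tissues were separated from flower and leaf, so for this gene the description low in flower and leaf also covered both tissues outside the rule. Silique exceeded flower by 2.31 on the log2(FPKM + 1) scale (1.85 to 2.83), and the lower bound lay under the limit of 2 (4-fold).

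Bol004119 was highest in silique, at 49.9 FPKM (45.7 to 54.0). Root followed at 17.5 FPKM (15.0 to 20.0), then callus at 12.9 FPKM (10.7 to 15.1) and bud at 11.6 FPKM (9.61 to 13.7). Flower was at 1.74 FPKM (0.962 to 2.52), stem at 1.50 FPKM (0.772 to 2.23) and leaf at 0.872 FPKM (0.321 to 1.42). Stem rested on 17.0 fragments and leaf on fewer. Root and callus had overlapping intervals, as did callus and bud, and so did flower with stem and stem with leaf. Bud exceeded flower by 2.20 on the log2(FPKM + 1) scale (1.59 to 2.90). This gene fell under the 4-fold limit after each rescaling of the columns that was tried, with gaps of 1.91 for upper quartiles, 1.83 for trimmed means and 1.96 when scaled to the fragments in gene models.

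**Figure D1:**
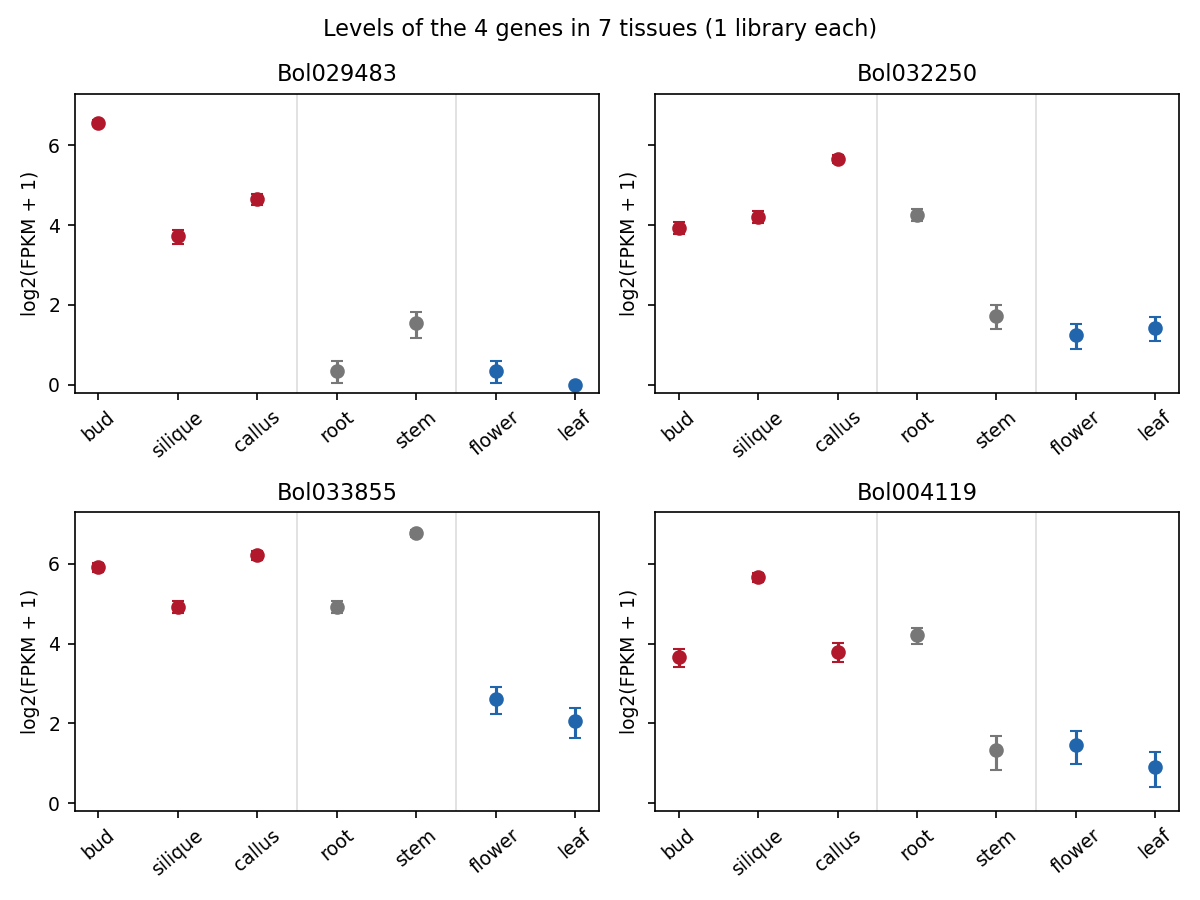
Level of each of the 4 genes in the 7 tissues as log2(FPKM + 1), with bars for the deposited interval of each value. Red points are the tissues the rule required to be high, blue points those it required to be low and grey points root and stem; in leaf, Bol029483 was listed at 0 and has no bar.

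The growing tissues themselves differed widely within each gene. Across bud, callus and silique the log2(FPKM + 1) range was 2.84 in Bol029483, 2.01 in Bol004119, 1.73 in Bol032250 and 1.29 in Bol033855. The lowest of the 3 was silique for Bol029483 and Bol033855 and bud for Bol032250 and Bol004119, and callus was the lowest for none of the 4. Of the low tissues, flower was the higher for 3 genes and leaf for Bol032250. The tissue specificity index tau, which runs from 0 for an even gene to 1 for a gene in a single tissue, was 0.731 for Bol029483, 0.549 for Bol004119, 0.506 for Bol032250 and 0.343 for Bol033855.

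Root and stem, the tissues outside the rule, split the 4 genes. Bol032250 and Bol004119 were higher in root, with stem minus root at -2.54 and -2.89 on the log2(FPKM + 1) scale, and at -2.13 and -2.31 at the interval bounds nearest 0. Bol033855 and Bol029483 were higher in stem, by 1.84 (1.60 to 2.09) and 1.19 (0.58 to 1.78). None of these 4 ranges from the interval bounds reached 0. Thus 2 of the 4 differed at least 4-fold in favour of root, and 0 of the 4 in favour of stem. With a pseudocount of 0.1 the difference in Bol029483 was 2.43, past the 4-fold limit. Over the 30945 genes detected at 1 FPKM or more in any tissue, 5.24% favoured root by this limit and 9.62% stem. Over the 10868 genes at 10 FPKM or more in bud the shares were 3.20% and 16.2%. With 4 genes, these counts describe single genes and no share of a group.

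Where root and stem fell within the gap made by the rule also differed by gene. In root, Bol004119 and Bol032250 reached the lowest growing tissue, exceeding it by 0.55 and 0.33 on the log2(FPKM + 1) scale, and Bol033855 was level with it (29.3 against 29.4 FPKM in silique). Root of Bol029483 was level with flower. In stem, Bol033855 alone of the 4 reached the lowest growing tissue, exceeding it by 1.84. In the other 3, stem minus the lowest growing tissue was -2.18 to -2.34, and stem of Bol004119 was level with flower within overlapping intervals. By this measure 2 of 4 genes reached the growing tissues in root and 1 of 4 in stem. Over the 10868 genes at 10 FPKM or more in bud, 43.6% did so in root and 59.8% in stem, and over detected genes 55.3% and 62.8%. The rule sets how far the lowest growing tissue lies above flower and leaf, and 4 genes give no share of a group. These counts are therefore a description and are not read against the background. Root was at least 4-fold above both flower and leaf in 3 of the 4 genes and stem in 1, against 2.86% and 2.30% of the genes at 10 FPKM or more in bud. The choice of genes low in flower and leaf raises these last counts, and nothing is read from them.

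**Figure D2:**
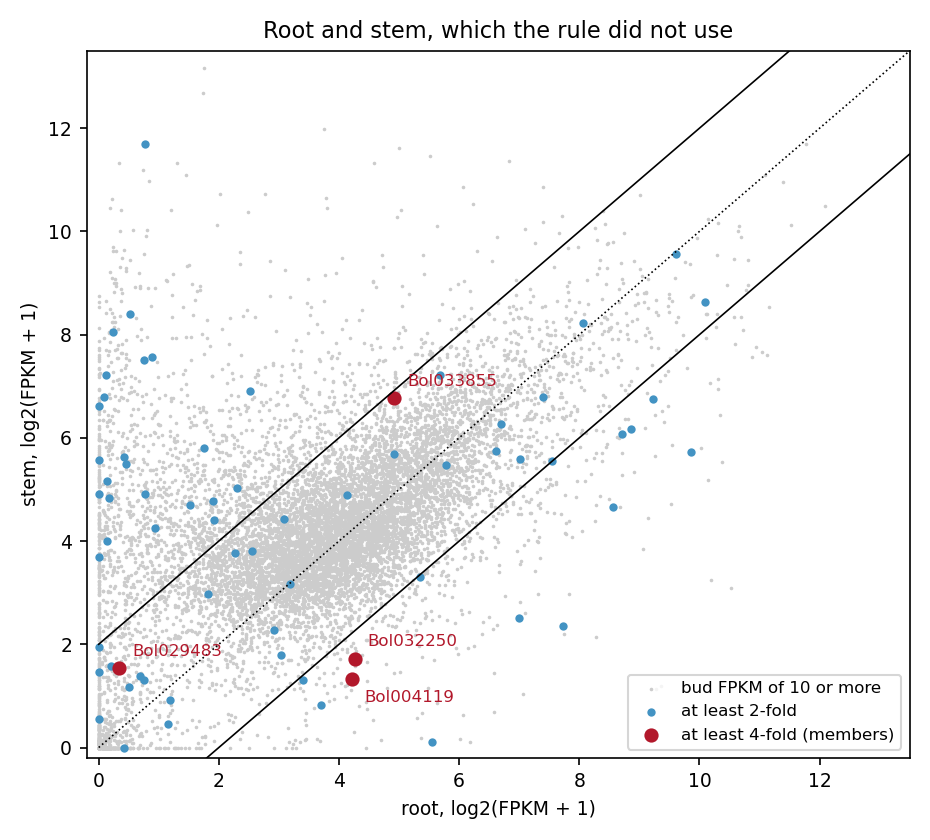
Stem against root as log2(FPKM + 1) for genes at 10 FPKM or more in bud (grey), those with a gap of at least 2-fold (blue) and the 4 genes (red). The dotted line marks equal levels and the solid lines 4-fold differences; Bol032250 and Bol004119 lie under the lower line, and Bol033855 and Bol029483 between the lines on the stem side.

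Few genes came near the rule. Of the 10868 genes at 10 FPKM or more in bud, 1080 (9.94%) had all of bud, silique and callus above both flower and leaf. The gap reached 2-fold in 68 genes (0.626%), 1.5 on the log2 scale in 18, 4-fold in the 4 genes (0.0368%) and 8-fold in Bol029483 alone. Among the same 10868 genes, each growing tissue taken alone exceeded flower and leaf 4-fold in 574 genes for bud, 212 for callus and 135 for silique. These lists share the flower and leaf libraries. The bud minimum also leaves out callus and silique genes that were low in bud, so the lengths of the lists are not compared. Taken against flower alone, 165 genes had all of bud, silique and callus 4-fold higher, and against leaf alone 258. All 5 lists ask for less than the full rule and contain the 4 genes by definition, so their greater length was fixed in advance.

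The smallest gap among the 4 genes was 2.20, in Bol004119, and the 2 genes just outside were at 1.99 and 1.96. Bol006190 (Scaffold000284, 211055 to 212697) was at 35.2 FPKM in bud, 35.5 in callus and 26.2 in silique, against 5.84 in flower and 4.65 in leaf, with 12.7 in stem and 3.82 in root. Its levels in the growing tissues were close together, and stem lay in the gap. Bol006999 (Scaffold000268, 328886 to 332178) was far more abundant, at 277 FPKM in bud, 282 in callus, 359 in silique, 267 in root and 298 in stem. It was at 70.3 FPKM in flower and 42.5 in leaf, so it was lower in these tissues than in the other 5, as Bol033855 was. The intervals of both genes spanned the limit, from 1.66 to 2.35 and from 1.85 to 2.08, and the limit does not separate them from Bol033855 or Bol004119 at this depth.

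**Figure D3:**
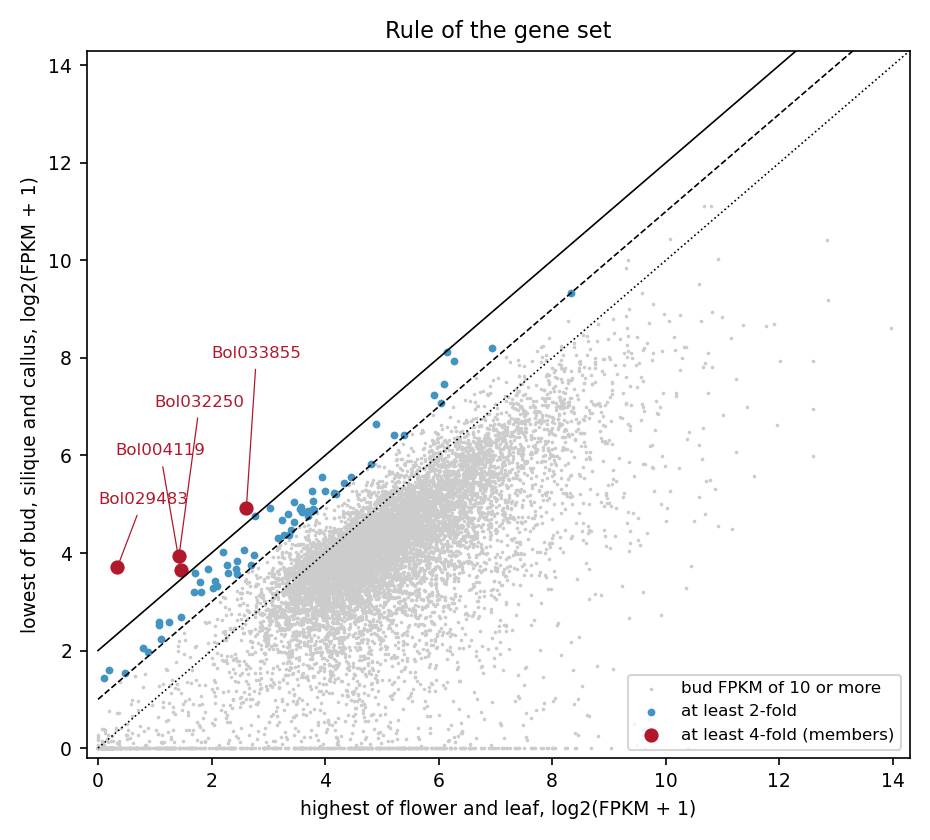
Lowest of bud, silique and callus against the highest of flower and leaf, both as log2(FPKM + 1), for genes at 10 FPKM or more in bud (grey), those with a gap of at least 2-fold (blue) and the 4 genes (red). The dotted, dashed and solid lines mark equal, 2-fold and 4-fold levels; the bulk of the 10868 genes lies under the dotted line and the 4 genes lie above the solid line.

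The 68 genes at the 2-fold limit, which include the 4, showed how the pattern varied in a wider set. Their median level was 29.0 FPKM in bud, 43.9 in callus and 32.6 in silique, against 5.78 in flower and 4.55 in leaf, as the rule requires. Stem had a median of 28.1 FPKM and root of 3.30 FPKM. Over all genes at 10 FPKM or more in bud these medians were 17.1 and 11.9 FPKM, so as deposited the median was higher in stem and lower in root. Rescaling left 37, 43 or 58 genes in the wider set, and the medians were not computed for those sets. The quartiles of the 68 genes were wide, from 3.61 to 72.7 FPKM in stem and from 0.366 to 46.9 FPKM in root. Over all genes at 10 FPKM or more in bud they were 8.49 to 38.1 FPKM and 3.85 to 27.6 FPKM. Both stem and root were thus spread further to either side in the wider set. Silique was the highest of the 7 tissues for 17 of the 68 genes, callus for 15, root for 13, bud for 12 and stem for 11. Over the 10868 genes at 10 FPKM or more in bud these counts were 1054, 1696, 963, 2550 and 831. Leaf was the highest for 2145 of those genes and flower for 1629. The rule keeps flower and leaf from being the highest, so nothing is read from these counts.

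Root and stem parted the wider set in both directions. At least 4-fold higher in stem than in root were 24 of 68 genes (35.3%, against 16.2% of genes at 10 FPKM or more in bud), and at least 4-fold higher in root 13 (19.1%, against 3.20%). The stem count moved with 2 of the 3 rescalings. After upper quartile rescaling the wider set had 37 genes, 8 of them higher in stem (21.6%, against 15.1%) and 10 in root (27.0%, against 4.33%). After trimmed mean rescaling it had 43 genes, 9 of them higher in stem (20.9%, against 15.6%) and 13 in root (30.2%, against 4.10%). Scaled to the fragments in gene models it had 58 genes, 20 of them higher in stem (34.5%, against 18.7%) and 12 in root (20.7%, against 2.64%), close to the shares as deposited. Root was at or below the higher of flower and leaf in 39 of the 68 genes (57.4%, against 82.8% of genes at 10 FPKM or more in bud), as it was in Bol006190. It reached the lowest growing tissue in 23 (33.8%, against 43.6%) and lay between in 6 (8.82%, against 0.626%). Stem was at or below the higher of flower and leaf in 14 (20.6%, against 78.7%) and between in 19 (27.9%, against 1.29%). It reached the lowest growing tissue in 35 (51.5%, against 59.8%). A gene without a gap can be in the lowest and the highest of these classes at once, so the background shares overlap and are not like for like. The rule sets the gap between the growing tissues and flower and leaf, so nothing is read from these shares.

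The 3 growing tissues were also taken alone, among genes at 10 FPKM or more in bud, of which 3.20% were 4-fold higher in root than in stem and 16.2% the reverse. Of the 212 genes 4-fold higher in callus than in flower and leaf, 51 (24.1%) exceeded stem by 4-fold or more in root and 19 (8.96%) exceeded root in stem. Of the 135 such genes for silique, 4 (2.96%) were higher in root and 76 (56.3%) in stem. Of the 574 for bud, 32 (5.57%) were higher in root and 58 (10.1%) in stem. The share higher in root was thus above the background for callus and bud and near it for silique. The share higher in stem was above it for silique and below it for callus and bud. All 3 lists were chosen as 4-fold above flower and leaf. A gene near 0 FPKM in both root and stem cannot differ 4-fold on FPKM + 1. In the bud list the median log2 stem minus root was 0, against 0.297 over all genes at 10 FPKM or more in bud. How far the choice of the lists sets these shares was not tested, and nothing further is read from them. These shares are for the deposited scaling alone, as the 3 lists were not remade after rescaling. The 4 genes belong to all 3 lists, and Bol032250 and Bol004119 are therefore counted as higher in root in each of them.

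**Figure D4:**
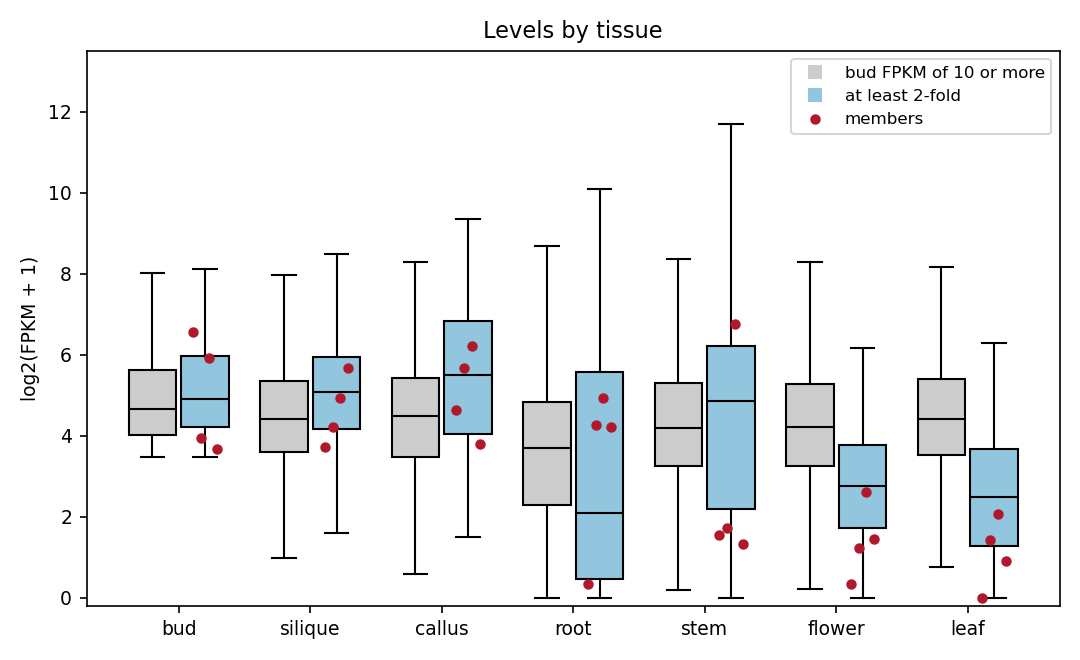
Levels by tissue as log2(FPKM + 1) for the 10868 genes at 10 FPKM or more in bud (grey boxes), the 68 genes with a gap of at least 2-fold (blue boxes) and the 4 genes (red points). Boxes span the quartiles with the median as a line, and whiskers reach the last value within 1.5 box lengths; the blue boxes for root and stem are the widest of the 7 tissues.

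The 4 genes lay on 4 scaffolds and none was next to another. Coordinates are those of the deposited table, whose genome build is not given in the sources used here, with starts counted from 1. Bol029483 was on Scaffold000065 (484122 to 488915), with an implied coding length of 1350 bases and 3444 bases of its span outside it. Bol032250 was on Scaffold000049 (663073 to 664752), with 1548 coding bases and 132 others. Bol033855 was on Scaffold000041 (2116346 to 2117608), with 777 and 486, and Bol004119 on Scaffold000330 (126767 to 128581), with 831 and 984. All 4 loci thus had room for introns, as had all 68 genes of the wider set, among which 0 were intronless. Of the genes at 10 FPKM or more in bud, 2 were called intronless (0.0184%), and of the 30945 detected genes 810 (2.62%). Room for introns was thus the usual state by this call, which rests on implied lengths.

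None of the genes around the 4 loci met the rule. Of the 16 neighbours, 2 on each side, 4 had all of bud, silique and callus above flower and leaf, and all 4 were detected genes. Over detected genes the share was 9.18%, but 6 of the 16 neighbours stayed under 1 FPKM in all tissues, so the denominators differ. Of all 39481 genes, 30945 reached 1 FPKM in any tissue. In the neighbours 4 reached 10 FPKM in any tissue, as did 17993 genes besides any 1 of the 4 genes. Nothing is read from these counts. The widest gap among them was 1.14 on the log2 scale, for Bol032249 (Scaffold000049, 658267 to 660021) beside Bol032250. It was at 1.62 FPKM in bud, 3.21 in callus, 4.22 in silique and 2.27 in root, against 0.0650 in stem, 0.193 in leaf and 0 as listed in flower. Its low tissues were those of Bol032250, at lower levels throughout. Bol029483 overlapped both its neighbours, Bol029482 by 1430 bases and Bol029484 by 190 bases. The protocols in the labels describe no strand marking, and fragments in the shared bases cannot be told apart. Bol029482 was at no more than 0.752 FPKM in any tissue and was listed at 0 in bud. Bol029484 was at 18.7 FPKM in callus, 1.96 in bud and 3.12 in silique. Its part in the callus level of Bol029483 was not tested. The other 3 genes overlapped no listed neighbour, the nearest being 625 bases from Bol033855.

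The gene with the most similar profile was found for each of the 4 by Pearson's r of log2(FPKM + 1) over the 7 tissues, among 17993 other genes that reached 10 FPKM. This measure was chosen after the values were seen, and it ignores how large the differences between tissues are. For Bol032250 it was Bol018147 (Scaffold000141, 1010065 to 1012096), with r of 0.987. Bol018147 was at 86.9 FPKM in callus, 39.8 in root, 33.7 in silique and 28.8 in bud, against 10.8 in leaf, 8.87 in stem and 6.13 in flower. It had the same high tissue, middle group and low group as Bol032250, with a gap of 1.33 on the log2 scale. For Bol029483 it was Bol034166 (r of 0.965), at 36.6 FPKM in bud, 21.1 in callus and 16.2 in silique and between 4.72 and 8.12 in the other 4 tissues. The closest genes to Bol033855 (Bol002797, r of 0.952) and Bol004119 (Bol036785, r of 0.951) had flatter profiles, from 20.0 to 60.6 FPKM and from 4.15 to 10.6 FPKM. Among the 4 genes themselves r ranged from 0.423, for Bol033855 and Bol004119, to 0.843, for Bol032250 and Bol004119. All 4 were chosen on 5 of the same 7 libraries, so these values are a description.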

How the data were processed

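Poly(A)+ RNA of 7 tissues, 1 library each, was sequenced as paired ends, per the labels' protocols. The authors deposited FPKM per gene, with a lower and an upper bound, per the file headers, which also pair columns with tissues. The submitters' processing notes list TopHat 1.0.13. A quantifier, a genome build, an annotation and a treatment of reads shared by near-identical genes were not given in the sources used here, so levels of duplicated genes are uncertain.

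Values were compared as log2(FPKM + 1), a pseudocount of 1 that understates folds of low genes. The gap is the lowest of bud, silique and callus minus the highest of flower and leaf. Ranges of a difference set lower against upper bounds. Fragments behind a value were computed as 4 times the square of FPKM over its distance to the upper bound, which gave whole numbers within 0.02 for 83.5% of 215412 values; values of 6 digits limit this at high counts. Coding lengths follow from FPKM per fragment; a gene was called intronless where length and span differed by less than 0.2%. No test was possible with 1 library per tissue. Genes just outside the limit were named by a written rule; Bol032249, Bol029482, Bol029484, the most similar genes and those with less than 10 FPKM in bud were chosen after their values were seen. The members and lists were chosen with earlier results of these data known. Alternatives were a pseudocount of 0.1, no bud minimum, other fold limits, 3 rescalings, interval bounds and single tissues left out of the gap. The selection code was run on simulated counts with counting error only and planted changes well above 4-fold. That run does not bear on genes near the limit or on the spread between replicates. Python 3.11.15, numpy 2.4.6, pandas 2.3.3 and matplotlib 3.10.9 were used.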

Additional observations from a re-analysis of the deposited data

How the results depend on the processing

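The number of genes meeting the rule depended on the pseudocount, the limit and the tissues required. It was 15 with a pseudocount of 0.1, of which 5 were 4-fold higher in stem than in root, 4 in root than in stem, 5 reached the growing tissues in stem and 6 in root. With no bud minimum it was 8, of which 2 reached the growing tissues in stem. With interval bounds it was 2 (Bol029483 and Bol032250), of which 1 was 4-fold higher in root, 0 reached the growing tissues in stem and 1 did in root. It was 68 at 2-fold and 1 at 8-fold. Leaving a tissue out of the gap gave 12 genes without bud, 52 without callus, 40 without silique, 258 without flower and 165 without leaf. The minimum of 10 FPKM in bud was kept in each of these, also in the count without bud. Each of the 3 rescalings kept 3 of the 4 genes, losing Bol004119, and left 1 gene 4-fold higher in root than in stem. Per fragment in gene models, chosen after the data were seen, 1 gene was 4-fold higher in stem (Bol033855, 2.10 on the log2 scale) and 1 reached the growing tissues in root. That rescaling moved the median stem minus root of detected genes from 0.00 to 0.15. The settings of the wider set were also added afterwards: with a pseudocount of 0.1 it had 91 genes, 38 of them 4-fold higher in stem and 18 in root. The direction of stem against root held for each of the 4 genes under the pseudocount and rescalings tried, but a pseudocount of 0.1 took Bol029483 from 1.19 to 2.43, past the 4-fold limit, and its gap from 3.37 to 5.06. The causes of these shifts were not tested. No paired analysis was possible because a tissue is represented by a single library. Low values limit Bol029483 most, with 5 fragments each in flower and root.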

Other observations

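Without the minimum in bud, 4 more genes met the 4-fold gap, with bud between 4.35 and 9.56 FPKM, and 3 of them were highest in callus. Bol044245 was at 405 FPKM in callus (394 to 415), 7.25 in silique and 4.35 in bud, and was listed at 0 in flower and leaf. Its root and stem were at 0.734 and 1.67 FPKM. Bol009790 was at 205 FPKM in callus, 11.8 in root, 10.8 in silique and 7.13 in bud, against 0.662 in leaf, 0.330 in flower and 0.112 in stem, so root lay with the growing tissues and stem with the low ones, as in Bol032250. Bol013052 was at 22.1 FPKM in callus, 11.5 in silique, 5.82 in stem and 4.90 in bud, against 1.19 in root. Bol011167 was highest in silique, at 12.4 FPKM, followed by bud at 9.56 and callus at 6.56, with root at 2.23 and stem at 0.204.

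The opposite pattern was rarer at the same limits. Of 9456 genes at 10 FPKM or more in flower, 0 had both flower and leaf at least 4-fold above the highest of bud, silique and callus, and 19 had them at least 2-fold above. That rule asks 2 tissues to exceed 3, where the first asks 3 to exceed 2, and the counts rest on the deposited scaling alone.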
